A study of Mus musculus with 8 samples.

Results

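Atf4 and 7 genes that it is known to activate under amino acid stress were followed in mouse sciatic nerve: Trib3, Chac1, Asns, Ddit3, Sesn2, Psat1 and Phgdh. The members are all array probes whose gene name in the scanner files is one of these 8 names, 12 probes of 55681 and 8 genes of 15343 measured. Male wild-type mice and male SOD1G93A transgenic mice, which carry a mutant human SOD1 gene and model amyotrophic lateral sclerosis, were compared at 60 days of age, with 4 arrays per genotype. Per the labels, each array held RNA of 1 nerve sample in the dye Cy3 and a common reference in Cy5, pooled from heart, liver and kidney of neonatal wild-type and SOD1G93A mice. The strain, the promoter of the transgene and any pooling of animals are not given in the sources used here. The design text calls the 4 samples of a genotype biological replicates. The 8 genes were chosen by values of the same genotype comparison, in which Trib3 was called lower while Atf4 was higher. Their genotype differences are therefore given as a description, with no test.

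Atf4 is a leucine zipper transcription factor of the integrated stress response. Kinases that sense amino acid shortage, misfolded protein, heme deficiency or double-stranded RNA phosphorylate the initiation factor eIF2, which slows most translation but favours translation of the Atf4 messenger RNA. Atf4 protein then activates genes for amino acid synthesis and uptake, and, when stress lasts, genes that feed back on the response or promote cell death. Much of this control acts on translation, so the Atf4 transcript measured here is not a measure of Atf4 protein. In peripheral nerve the response is known from Schwann cells under stress of the endoplasmic reticulum.

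Parts of 5 member probes are shown because the results turn on the genes they read. Each line gives 30 of the 60 bases of a probe, 5′ to 3′, from the scanner files, and capitals mark AATAAA, the usual polyadenylation signal of messenger RNA. Of the 12 member probes 3 hold this hexamer, as do 10.1% of all 55681 probes.
Atf4, brighter probe, chr15:80087902-80087961: tgctgtgtttgctgtAATAAAttattttgt
Atf4, dimmer probe, chr15:80086639-80086698: tcttcacgaaatccagcagcagtgttgctg
Trib3, chr2:152163161-152163220: catcatgtgcccAATAAAagagagctgtgt
Chac1, chr2:119179990-119180049: actacagtccttgtccattctcagttgacc
Asns, chr6:7625171-7625228: ggcatgaaaagaAATAAAagtttcacatct
Positions are those of the whole probes in the files, on mouse build mm9. The Trib3 and Asns probes read the minus strand and the others the plus strand. Of the Atf4 probes the brighter one holds the hexamer, and the dimmer one lies upstream of it on the chromosome.

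Atf4 dimers bind a composite C/EBP-ATF response element whose core is TGATGNAA. The 250 bases before each gene start were searched for it on both strands in the RefSeq promoter table, build GRCm38.p6. All 8 genes matched the table, with 9 promoters, since Psat1 has 2 starts there. The core was present in 2 of the 9, those of Chac1 and Asns, and in 3.45% of all 32851 promoters. Both stretches are shown, read along the gene's strand, with the core in capitals.
Chac1, chr2:119351033-119351072, plus strand: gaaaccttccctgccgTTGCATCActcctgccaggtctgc
Asns, chr6:7693210-7693248, minus strand: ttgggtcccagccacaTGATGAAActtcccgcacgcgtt
In Chac1 the core lies on the opposite strand and begins 193 bases before the start, and in Asns it lies on the gene's strand and begins 23 bases before it. A match is a string of letters, not a measured binding site, and the other promoters show only that these letters are not in this window.

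Values below are log2 ratios of Cy3 to Cy5, so 1 unit is a doubling of nerve signal relative to the reference. A probe was kept when its Cy3 signal stood well above background on 4 or more arrays, which all 12 member probes met, and none was saturated. Chac1 passed through its wild-type arrays, being above background on all 4 of those and on 2 of 4 SOD1G93A arrays. Between 35.5% and 41.7% of spots per array were above background. The 8 arrays shared a single slide and scan date, and each genotype filled 1 row of positions, so position and genotype cannot be told apart. Wild-type replicate 1 and SOD1G93A replicate 1 stood apart at -33.7 and 30.3 on the first principal component, against -14.7 to 10.9 for the other arrays, and had the highest and lowest median Cy3 intensity of kept probes, 713.5 and 374.0. The 10 Schwann cell markers, among them Mbp, were above background on all 8 arrays. The mouse Sod1 probe gave 0.13 in wild-type and -0.04 in SOD1G93A nerve, and whether it reads the human transgene was not analysed, so it checks no label.

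Trib3, a pseudokinase that Atf4 induces and that in turn binds and restrains Atf4, was lower in SOD1G93A nerve on every array. Wild-type replicates 1 to 4 gave log2 ratios of 0.21, 0.17, 0.02 and -0.09, and SOD1G93A replicates 1 to 4 gave -0.79, -0.49, -0.59 and -0.75. The lowest wild-type array lay 0.40 above the highest SOD1G93A array. The means were 0.08 ± 0.14 (SD, n = 4) and -0.65 ± 0.14 (SD, n = 4), a difference of -0.73 ± 0.10 (SE), or a 1.66-fold lower level. The uncorrected Cy3 intensity was 481.1 to 610.2 in wild-type and 224.4 to 352.1 in SOD1G93A nerves, while the Cy5 intensity of the reference was 215.6 to 279.1 over all arrays. These Cy3 intensities did not overlap, but they also carry the brightness of each array and come from the comparison that chose Trib3. For the brighter Atf4 probe they overlapped, at 14334.9 to 18301.4 in wild-type and 10769 to 24984.7 in SOD1G93A nerves. Trib3 was the 1 member called by limma at an adjusted p under 0.05, as were 0.163% of all genes, 0.0912% lower and 0.0717% higher in SOD1G93A nerve, and nothing is read from this share because the call helped to choose the members.

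Chac1, an enzyme that breaks down glutathione and a late target of the Atf4 pathway, was lower in SOD1G93A nerve. It gave 1.46, 1.51, 1.03 and 0.45 on wild-type replicates 1 to 4 and -0.15, 0.15, -0.49 and -0.49 on SOD1G93A replicates 1 to 4. The groups did not overlap, though wild-type replicate 4 lay within 0.30 of the highest SOD1G93A array. The difference was -1.36 ± 0.24 (SE), from 1.11 ± 0.49 to -0.24 ± 0.31 (SD, n = 4 per group). SOD1G93A replicates 3 and 4 were not well above background, and the difference was -2.28 instead from the series table or Agilent processed signals, so no exact fold can be read from this probe.

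Asns, which makes asparagine from aspartate and glutamine, varied mainly among wild-type nerves. It gave 1.49, 0.80, 0.40 and 0.14 on wild-type replicates 1 to 4 and -0.07, 0.43, 0.11 and 0.17 on SOD1G93A replicates 1 to 4. The groups overlapped, and wild-type replicates 1 and 2 stood above every SOD1G93A array. The difference was -0.55 ± 0.26 (SE), with an SD of 0.59 in wild-type and 0.21 in SOD1G93A nerve (n = 4 each). Leaving out wild-type replicate 1 brought the difference to -0.29, and leaving out the replicate 1 arrays of both genotypes to -0.21.

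Atf4 itself was higher in SOD1G93A nerve. Its brighter probe gave -0.0049, 0.18, 0.15 and 0.16 on wild-type replicates 1 to 4 and 0.25, 0.68, 0.48 and 0.68 on SOD1G93A replicates 1 to 4. SOD1G93A replicate 1 lay only 0.07 above the highest wild-type array, and the other 3 were well separated from wild type. The difference was 0.40 ± 0.11 (SE), from 0.12 ± 0.09 to 0.52 ± 0.20 (SD, n = 4 per group), or 1.32-fold. The dimmer probe gave 0.22 ± 0.13 (SE) in the same direction, with 0.53 to 0.71 in wild-type and 0.47 to 1.08 in SOD1G93A nerve. On that probe SOD1G93A replicate 1 was the lowest of all 8 arrays, so the groups overlapped.

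**Figure D1:**
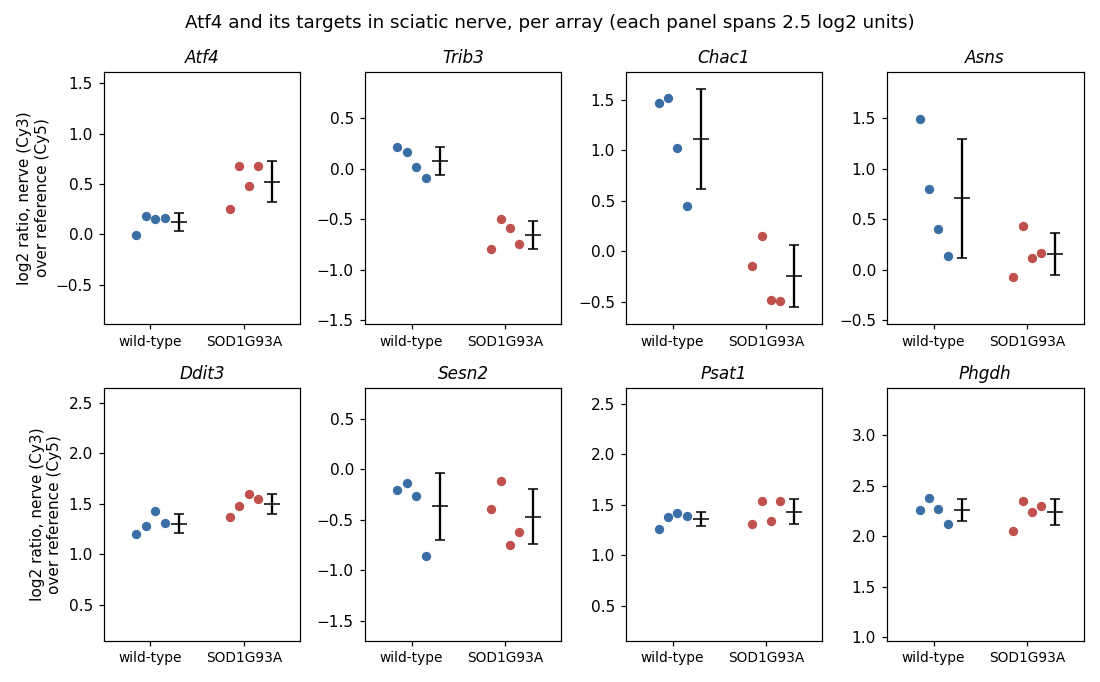
Log2 ratio of nerve to reference signal for the brightest probe of each gene, with 1 point per array and the group mean ± SD beside the points (n = 4 per genotype). The groups are separate for Atf4, Trib3 and Chac1, with Atf4 higher and the other two lower in SOD1G93A nerve, and overlap for the other 5 genes.

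Ddit3 encodes CHOP, a transcription factor that Atf4 induces and that promotes cell death under lasting stress. It gave 1.20, 1.28, 1.42 and 1.31 on wild-type replicates 1 to 4 and 1.37, 1.48, 1.59 and 1.55 on SOD1G93A replicates 1 to 4. SOD1G93A nerves were higher by 0.20 ± 0.08 (SE), and 1 array of SOD1G93A lay within the wild-type range. This put Ddit3 on the side of Atf4 and opposite to Trib3 and Chac1.

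Sesn2, a leucine sensor that restrains the growth kinase complex mTORC1, ranged from -0.86 to -0.14 in wild-type and from -0.75 to -0.12 in SOD1G93A nerve. Its difference of -0.10 ± 0.18 (SE) was smaller than the SD within either group, 0.33 and 0.27. Both genotypes held high and low nerves for this gene.

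Phgdh and Psat1 encode the enzymes of the first and the second step of serine synthesis from a glycolytic intermediate. The brightest Phgdh probe ranged from 2.12 to 2.38 in wild-type and from 2.05 to 2.35 in SOD1G93A nerve, a difference of -0.02 ± 0.09 (SE). Its other probes gave -0.07 ± 0.11 and -0.10 ± 0.13 (SE), and the first of these lies on chromosome 17 in the files while the gene's other probes lie on chromosome 3. The brighter Psat1 probe ranged from 1.26 to 1.42 in wild-type and from 1.31 to 1.54 in SOD1G93A nerve, a difference of 0.07 ± 0.09 (SE). The dimmer one gave -0.16 ± 0.15 (SE), so the direction for Psat1 is not settled. The serine pathway members thus lay in the same range in both genotypes.

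**Figure D2:**
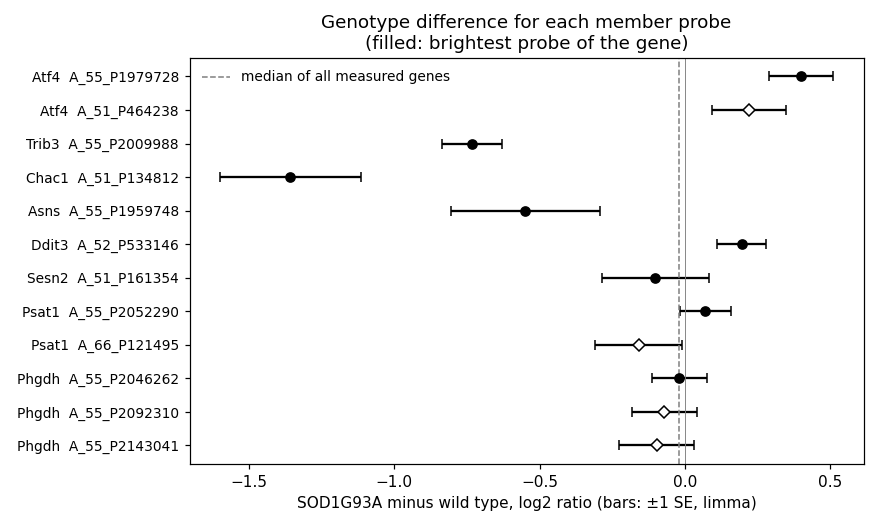
Difference in log2 ratio, SOD1G93A minus wild type, for the 12 member probes, with bars of ±1 SE from limma (n = 4 per genotype) and a dashed line at the median of all measured genes, -0.02. Both Atf4 probes lie to the right and Trib3, Chac1 and Asns to the left, and the probes of Phgdh and Psat1 lie near 0.

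Over the 8 genes, 3 were higher and 5 lower in SOD1G93A nerve, with a median difference of -0.06 against -0.02 over all 15343 genes. The groups did not overlap for 3 of the 8, 1 higher (Atf4) and 2 lower (Trib3 and Chac1), against 7.98% of all genes complete on every array, 3.65% higher and 4.33% lower. Nothing is read from this count, since the same comparison was used to choose the genes. Profiles across the 8 arrays, each gene centred on its mean, were most alike for Psat1 and Phgdh, with a root mean square difference of 0.10. Ddit3 and Psat1 lay nearly as close, at 0.11. The profiles were least alike for Atf4 and Chac1, at 0.96. This difference is not scaled to the spread of each gene, so genes that vary little come out as alike whatever their pattern. Among all other genes complete on 8 arrays, the profiles nearest to Trib3 were those of Opn3 (0.10), Rras (0.10) and Tspan4 (0.11). Those nearest to Atf4 were Ppara, Mex3b and the probe named NAP062849-1, each at 0.07.

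The targets were then set against Atf4 within each array, by subtracting the log2 ratio of its brighter probe from that of the target. For Trib3 this gave 0.22, -0.02, -0.13 and -0.25 on wild-type replicates 1 to 4 and -1.04, -1.18, -1.06 and -1.42 on SOD1G93A replicates 1 to 4. The means were -0.05 in wild-type and -1.18 in SOD1G93A nerve. The dimmer Atf4 probe had higher means, 0.59 and 0.81, so where Trib3 lies against Atf4 depends on the probe. The shift of the mean was -1.13 for Trib3 (-1.04 with the mean of the 2 Atf4 probes), -1.76 for Chac1, -0.95 for Asns and -0.50 for Sesn2. It was -0.42 for Phgdh, -0.33 for Psat1 and -0.20 for Ddit3.

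All 7 shifts were negative, as were those of 15027 of 15342 genes, since Atf4 was itself higher. The median shift over all genes was -0.42, which is also that of Phgdh. The groups did not overlap for 5 of the 7 targets, the exceptions being Ddit3 and Sesn2, against 43.0% of all genes, 42.9% with SOD1G93A lower. Nothing is read from these shifts or this count, since the lower Trib3 and the higher Atf4 of the same comparison chose the genes.

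**Figure D3:**
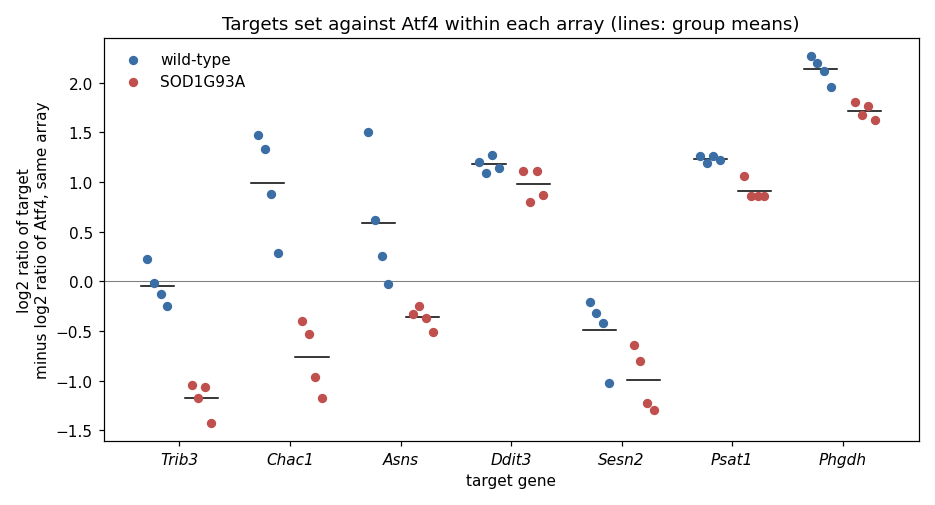
Log2 ratio of each target minus that of the brighter Atf4 probe on the same array, with 1 point per array and lines at the group means (n = 4 per genotype). Trib3, Chac1 and Asns show the widest gaps between genotypes, with mean shifts of -1.13, -1.76 and -0.95, while the median gene on the arrays shifts by -0.42.

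Cell type markers moved along with some of these values, and their part in the results was not tested. In whole nerve, fewer cells of a type and less RNA per cell cannot be told apart. All 9 measured adipocyte markers of 10 were lower in SOD1G93A nerve, with a mean centred score of 1.16, 0.91, 0.16 and -0.39 on wild-type replicates 1 to 4 and -1.40 to -0.07 on SOD1G93A arrays. All 8 measured skeletal muscle markers of 10 were lower, with scores of 2.77, 1.90, -0.72 and -0.58 on wild-type replicates 1 to 4 and -0.97 to -0.64 on SOD1G93A arrays, and Mylpf was not above background on any array. Pericyte and smooth muscle markers were lower for 7 of 8, with scores of -0.35 to 1.09 in wild-type and -0.67 to -0.27 in SOD1G93A nerve. Endothelial markers were lower for 9 of 10, at 0.02 to 0.46 against -0.48 to -0.06. Macrophage markers were higher for 9 of 10, at -0.47 to -0.14 in wild-type and -0.45 to 0.69 in SOD1G93A nerve. Schwann cell markers were higher for 9 of 10 over all arrays, but this direction rested on the replicate 1 arrays. Their scores were -0.30, 0.16, -0.004 and -0.005 on wild-type replicates 1 to 4. SOD1G93A replicates 1 to 4 gave 0.46, -0.12, -0.10 and -0.09. On replicates 2 to 4 every SOD1G93A score lay below every wild-type score. Of 6 fibroblast markers 2 were higher and 4 lower, at -0.22 to 0.18 and -0.35 to 0.25. Only the endothelial scores were separate between genotypes, and those of every other type overlapped.

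The wild-type nerves with the most muscle and adipocyte signal, replicates 1 and 2, were also the highest for Asns, Chac1 and Trib3. Wild-type replicates 3 and 4, with muscle scores of -0.72 and -0.58, gave Trib3 values of 0.02 and -0.09, and the highest SOD1G93A value was -0.49. Replicate 3 lay above every SOD1G93A array in its adipocyte (0.16), endothelial (0.15) and pericyte (0.02) scores, and replicate 4 in its muscle and endothelial (0.02) scores. The same pair gave Chac1 values of 1.03 and 0.45 and Asns values of 0.40 and 0.14, the last of which lay inside the SOD1G93A range. On the 6 arrays numbered 2 to 4 the differences were -0.64 for Trib3, -1.27 for Chac1, -0.21 for Asns and 0.45 for Atf4. These arrays still include wild-type replicate 2, with a muscle score of 1.90 and an adipocyte score of 0.91. They therefore do not set the marker signal aside, and its part in the differences was not tested.

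A second comparison set wild-type nerve against the reference pool. This contrast was not used to choose the genes, but it rests on the same 4 wild-type arrays as the genotype comparison that was, so it is not independent of that choice. It was tested with limma over all genes, where 76.8% of genes were called, 42.7% higher and 34.1% lower in nerve. Dye and tissue cannot be told apart here because no dye was swapped, the pool is a single RNA whose own spread is left out, and loess centres each array. Of the 8 genes 6 were called, 5 higher and 1 lower in nerve, a share near that of all genes. Both the 6 and the 5 include Chac1, whose call is affected by the filter as described below, so nothing is read from this share. Phgdh had the highest ratio, at 2.26 ± 0.07 (SE, limma adjusted p = 2.07e-09), or 4.78-fold above the reference. Psat1 gave 1.36 ± 0.06 (SE, limma adjusted p = 3.09e-08), and its rank depended on probe and processing. Its dimmer probe had a wild-type mean of 1.02. From Agilent processed signals Psat1 gave 1.28, against 1.86 for Ddit3. Ddit3 was 2.46-fold higher (1.3 ± 0.06 SE, limma adjusted p = 3.77e-08) and Asns 1.63-fold (0.71 ± 0.18 SE, limma adjusted p = 0.00570). Chac1 was 2.16-fold higher (1.11 ± 0.17 SE), and no p is given for it because it passed the filter on dim probes through its wild-type arrays. All 4 wild-type arrays showed the direction for each of these 5 genes.

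Sesn2 was the gene called lower in nerve, at -0.37 ± 0.13 (SE, limma adjusted p = 0.0263), with all 4 wild-type arrays below 0. Atf4, at 0.12 ± 0.08 (SE, limma adjusted p = 0.172), and Trib3, at 0.08 ± 0.07 (SE, limma adjusted p = 0.343), were not called. In wild-type nerve the ratios of Trib3 and of the brighter Atf4 probe were thus small. The dimmer Atf4 probe had a wild-type mean of 0.59, so the level of Atf4 against the pool depends on the probe. The Sesn2 call was lost without wild-type replicate 4, the lowest of the 4 arrays (-0.21, limma adjusted p = 0.130). Median centring lost it too (-0.25, limma adjusted p = 0.231). Atf4 was called with 6 of 19 alternatives, among them array weights (limma adjusted p = 0.0448) and the mean of its 2 probes (0.36, limma adjusted p = 0.00243), and turned to -0.23 with median centring.

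The rest of the pathway was read from 8 lists of known genes, 91 genes in all, of which 79 were measured. None of them was called by limma in the genotype comparison, and 8 of the 79 passed an unadjusted p of 0.05, against 11.4% of all genes. Of the 79, 33 were higher and 46 lower, with a median of -0.04 against -0.02 over all genes. Some of the lower genes, Aldh18a1 among them, passed the filter on dim probes mostly through their wild-type arrays. The filter therefore bears on these counts and on those of the lists below. The groups did not overlap for 6 of the 79, a share close to the 7.98% of all genes.

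The first list holds eIF2 kinases, phosphatase subunits, sensors and eIF2 itself, and some of these act on eIF2 in opposite directions. All 10 were measured, 5 higher and 5 lower, with a median difference of -0.0046. Because the roles differ, this count does not give the activity of the pathway. Eif2ak4, the kinase GCN2 that senses uncharged transfer RNA, gave -0.29 ± 0.08 (SE, limma adjusted p = 0.221), and Eif2ak2, the kinase PKR that senses double-stranded RNA, gave -0.31 ± 0.08 (SE, limma adjusted p = 0.198). In both the 4 SOD1G93A arrays lay below all wild-type arrays, though neither was called. Ppp1r15b, a constitutive subunit of the eIF2 phosphatase, gave 0.16 ± 0.08 (SE, limma adjusted p = 0.50).

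Of the 8 partners and co-regulators of Atf4, 6 were higher, with a median of 0.12. Atf3, a stress-induced leucine zipper factor that is itself an Atf4 target, gave 0.84 ± 0.13 (SE, limma adjusted p = 0.0591), with 1.22 to 1.77 in wild-type and 2.17 to 2.53 in SOD1G93A nerve. It missed the threshold here and was called in 2 of 21 alternatives, with array weights and without SOD1G93A replicate 1. Jund, an AP-1 subunit, gave 0.33 ± 0.09 (SE, limma adjusted p = 0.198), and Cebpa, a factor of adipocytes and myeloid cells, -0.80 ± 0.40 (SE, limma adjusted p = 0.481). Hence the partners and co-regulators with the smallest p included genes in both directions.

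Amino acid transporters were measured for 9 of 11, with 3 higher and 6 lower and a median of -0.04. Slc1a5, a glutamine carrier, gave -1.19 ± 0.31 (SE, limma adjusted p = 0.200), with -0.05 to 1.42 in wild-type and -0.99 to -0.09 in SOD1G93A nerve. Slc43a1, a carrier of large neutral amino acids, gave -0.55 ± 0.25 (SE, limma adjusted p = 0.452). Slc38a2, which Atf4 induces when amino acids are short, gave -0.17 ± 0.20 (SE, limma adjusted p = 0.765), and turned to 0.03 without SOD1G93A replicate 1. The cystine carrier Slc7a11 was on the array but not measured above background on enough arrays.

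Enzymes of serine, one-carbon and amino acid metabolism were measured for 10 of 15, with 2 higher and 8 lower and a median of -0.13. Got1, an aspartate aminotransferase, gave 0.23 ± 0.10 (SE, limma adjusted p = 0.433), and Glul, glutamine synthetase, -0.38 ± 0.26 (SE, limma adjusted p = 0.600). Aldh18a1, an enzyme of proline synthesis, gave -0.20 ± 0.10 (SE). Its signal was above background in 3 wild-type nerves and 1 SOD1G93A nerve, so no p is given for it. Aminoacyl-transfer RNA synthetases, which load amino acids onto transfer RNA, were measured for 15 of 16, with 6 higher and 9 lower and a median of -0.05. Vars gave -0.25 ± 0.11, Tars 0.18 ± 0.11 and Cars 0.11 ± 0.07 (SE, limma adjusted p = 0.429, 0.578 and 0.619). Several synthetases are known Atf4 targets, but which genes of this list are was not examined. Those of the list with the smallest p lay on both sides of 0.

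Other stress targets of Atf4 were measured for 10 of 14, with 1 higher and 9 lower and a median of -0.17. Eif4ebp1, a repressor of cap-dependent translation, gave -0.54 ± 0.24 (SE, limma adjusted p = 0.446), with an SD of 0.55 in wild-type and 0.20 in SOD1G93A nerve. Herpud1, a factor of protein degradation at the endoplasmic reticulum, gave -0.28 ± 0.15, and the autophagy receptor Sqstm1 -0.25 ± 0.16 (SE, limma adjusted p = 0.508 and 0.569). Paralogs of the members were all measured, 5 of 5, with 3 higher and 2 lower. Trib1 gave 0.29 ± 0.27, Sesn3 0.20 ± 0.11 and Sesn1 -0.14 ± 0.10 (SE, limma adjusted p = 0.709, 0.515 and 0.619). Trib2, the other paralog of Trib3, gave -0.14 ± 0.16 (SE, limma adjusted p = 0.758).

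The arms of the unfolded protein response that run through IRE1 and ATF6 had 12 of 12 genes measured, with 7 higher and 5 lower and a median of 0.0076. Hspa5, the main chaperone of the endoplasmic reticulum and a target of ATF6, gave 0.47 ± 0.10 (SE, limma adjusted p = 0.123), with -0.20 to 0.18 in wild-type and 0.31 to 0.52 in SOD1G93A nerve. It was called in 2 of 21 alternatives. Sdf2l1 and Edem1, which act in folding and disposal of proteins there, gave 0.31 ± 0.14 and 0.13 ± 0.10 (SE, limma adjusted p = 0.452 and 0.670). Sdf2l1 was called with array weights (0.43, limma adjusted p = 0.0392).

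**Figure D4:**
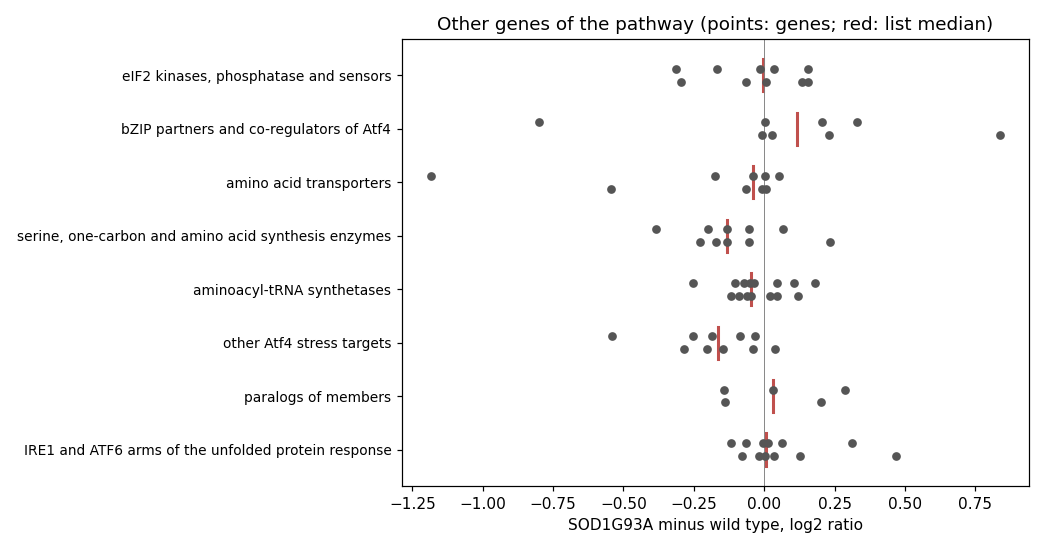
Difference in log2 ratio, SOD1G93A minus wild type, for the 79 measured genes of 8 pathway lists outside the 8 members, with 1 point per gene and a red line at each list's median. List medians lie between -0.17 and 0.12, and single genes reach from -1.19 (Slc1a5) to 0.84 (Atf3), none of them called.

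**Figure D5:**
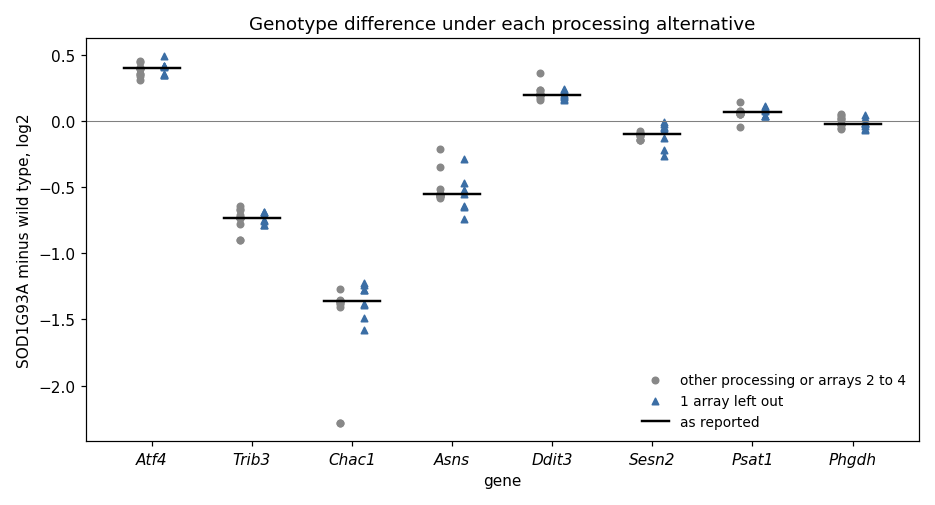
Difference in log2 ratio, SOD1G93A minus wild type, of each of the 8 genes as reported (line), under other processing or on the arrays numbered 2 to 4 (circles) and with 1 array left out (triangles). Atf4 stays between 0.31 and 0.49 and Trib3 between -0.90 and -0.64, while Asns ranges from -0.74 to -0.21 and Phgdh crosses 0.

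The signs of these differences were the same in all alternatives run for Atf4, Trib3, Asns, Ddit3 and Sesn2 (21 each) and for Chac1 (20). Psat1 kept its sign in 20 of 21 and Phgdh in 14 of 21. The call of Trib3, which helped to choose the genes, was lost when any 1 array other than SOD1G93A replicate 1 was left out, with differences between -0.79 and -0.69. It was also lost with median centring, with Agilent processed signals, with the series table and with the replicate number as a block.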

How the data were processed

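Nerve RNA (Cy3) and a reference pool (Cy5) were hybridised on 8 Agilent 2-colour arrays with no dye swap, per the labels. Each deposited scanner file gives linear intensity per spot and channel, with quality flags, as written by Agilent Feature Extraction 11.5.1.1 per the file headers (11.0.1.1 per the submitters' processing notes, which also name limma). In the deposited series table the values are log10 ratios, Cy5 over Cy3, with a largest difference of 0 from those in the scanner files. Its column medians were 0 and 30.7% of its values were 0.

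From the mean intensity, background was corrected by normexp (offset 50) and ratios by loess within arrays, control spots having no weight. Outlier spots were left out and spots of 1 probe averaged. Kept were probes whose Cy3 signal stood well above background on 4 or more arrays (19838 of 55681), and the brightest represented each gene name. Genotypes, and wild-type nerve against 0, were compared with limma 3.58.1 in R 4.3.3 (lmFit, eBayes, 2-sided, Benjamini-Hochberg over 15343 genes, called under 0.05). Adjusted p-values come from this fit. The number of arrays limits the precision.

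Members, lists and the promoter motif were chosen with earlier results of these data known. Genes named are the members, the 3 of smallest p in each list and the 3 of nearest profile to Trib3 and to Atf4. Slc7a11, Trib2, Mbp, Mylpf and Sod1 were named after their values were seen. All 91 list genes were on the array, Gcn1 under an older name. Alternatives covered background, normalization, channel, filter, block, weights, variance model, probes, series table and arrays left out. Sequences are from the scanner files and from RefSeq.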

Additional observations from a re-analysis of the deposited data

Results flagged for a closer look

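Within groups of 4 arrays, 5 of 86 groups of values held an array set apart from its other 3 by more than Dixon's critical value, where chance gives about 4.3. All 5 were SOD1G93A replicate 1, the array with the lowest Cy3 intensity. The Phgdh probe placed on chromosome 17 gave 1.83 there, against 2.24 to 2.31 on the other SOD1G93A arrays. Psat1 minus Atf4 gave 1.06, against 0.85 to 0.86. Herpud1 gave -0.41, against 0.17 to 0.27. Sqstm1 gave 0.65, against 1.27 to 1.31. Edem1 gave 0.20, against 0.33 to 0.35.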

How the results depend on the processing

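The number of genes called between genotypes was 25, and moved to 6 with Agilent processed signals, 6 with the series table, 1 with median centring, 16 with no filter on dim probes, 430 with array weights and 233 on the 6 arrays numbered 2 to 4. It ranged from 3 to 179 with 1 array left out (9, 3, 3 and 16 without wild-type replicates 1 to 4, and 179, 9, 4 and 3 without SOD1G93A replicates 1 to 4). With the replicate number as a block it was 1. Over all genes, deviations of same-numbered arrays correlated at -0.16, 0.04, -0.11 and 0.10. Whether such arrays were paired cannot be told from these values, since single genes differed. With the block the SE was 0.13 for Chac1, against 0.24 without it, and 0.12 for Hspa5, against 0.10. The count for nerve against reference stayed within 1.5 times of 11787, from 10006 to 16380, over 19 alternatives. From the series table or Agilent processed signals, Trib3 was -0.90, Chac1 -2.28 and Chac1 minus Atf4 -2.63. In the Cy3 channel alone Ddit3 was 0.36, and the shifts against Atf4 were 0.021 for Ddit3, -0.19 for Psat1 and -0.29 for Phgdh. The mean of the 2 Psat1 probes gave -0.043. Atf4 in nerve against reference reversed to -0.23 with median centring, and Slc38a2 to 0.032 without SOD1G93A replicate 1 and to 0.010 when wild-type replicate 1 was left out too. The cause of these changes was not tested. Chac1 could not be fitted with the filter that asks for all 8 arrays above background, since 2 arrays were not. With 1 array left out, Trib3 ranged from -0.79 to -0.69, Chac1 from -1.58 to -1.22 and Asns from -0.74 to -0.29.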
